A study of Mus musculus with 14 samples.

Results

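The 10 genes described here are the metallothioneins Mt1 and Mt2, the epoxide hydrolase gene Ephx1, and 7 enzymes of oxidative defence: Nqo1, Hmox1, Gclc, Gclm, Txnrd1, Srxn1 and Gsta4. They were measured on Affymetrix arrays of whole fetal mouse ovaries that kept or had lost COUP-TFII, the orphan nuclear receptor encoded by Nr2f2. A probe set is a group of short probes that report 1 transcript, and the genes were taken through every probe set whose single platform symbol is 1 of these 10, which gave 18 probe sets of 45037. The genes were chosen by measured values of these arrays, the higher Mt1 signal in E14.5 knockouts and the higher Ephx1 signal in E16.5 knockouts, so both values stand below as description with no test. The question was whether the other genes of the NRF2 type move with them.

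Knockout ovaries came from a tamoxifen-inducible model, WT1-CreERT2 with COUP-TFII flox/flox. Dams received tamoxifen at 2 mg per 10 g body weight on E11.5 and again on E12.5, so control and knockout fetuses alike were exposed to it. The 4 groups were control ovaries at E14.5 (n = 3), knockout ovaries at E14.5 (n = 3), control ovaries at E16.5 (n = 4) and knockout ovaries at E16.5 (n = 4), all from a mixed background of C57BL/6, Swiss Webster and B6129SF1/J mice. The labels call the controls only "control": whether these carried the Cre or the flox alleles is not stated in the sources used here, nor is the number of fetuses or litters behind an array. The Cre is driven by Wt1, which is active in the coelomic epithelium and the somatic cells of the gonad; which cells had lost the gene on these arrays is not stated. The labels name the replicates biological, without saying whether they share a litter, and the p-values measure the spread between these samples.

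Metallothioneins are small cysteine-rich proteins that bind zinc and copper. The zinc-sensing factor MTF1 drives their genes through metal response elements, and glucocorticoids and oxidants also raise them. EPHX1, the microsomal epoxide hydrolase, opens reactive epoxides in the endoplasmic reticulum, and in the postnatal ovary it takes part in handling ovotoxic chemicals. NRF2, encoded by Nfe2l2, is held back by KEAP1 and, once released, drives enzymes of glutathione synthesis, thioredoxin recycling and quinone reduction through antioxidant response elements, from which BACH1 can displace it.

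In RefSeq's GRCm38.p6 assembly, Mt2 lies at chr8:94172618-94173567 and Mt1 at chr8:94178883-94180327, with 5315 bases between them. Ephx1 lies on another chromosome, at chr1:180989556-181017569. The RefSeq promoter table, whose windows run from 250 bases before to 50 bases after a start, held 9 windows for 7 of the 10 genes; Hmox1, Gclc and Gsta4 were not matched. The 2 metallothionein promoters are shown because these neighbouring genes had like changes between genotypes, and capitals mark each match to the metal response element core on either strand, spelled TGCACNC or TGCGCNC. The Mt2 stretch is chr8:94172468-94172647 and the Mt1 stretch is chr8:94178939-94179118, both on the plus strand and both ending 30 bases after the start given in the table.

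Mt2: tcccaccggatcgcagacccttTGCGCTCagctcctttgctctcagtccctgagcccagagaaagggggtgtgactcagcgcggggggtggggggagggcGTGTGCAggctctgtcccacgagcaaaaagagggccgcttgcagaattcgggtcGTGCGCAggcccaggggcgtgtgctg
Mt1: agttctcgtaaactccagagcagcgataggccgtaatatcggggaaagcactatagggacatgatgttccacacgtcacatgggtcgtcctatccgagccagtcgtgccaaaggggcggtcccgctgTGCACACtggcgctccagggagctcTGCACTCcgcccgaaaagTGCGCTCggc

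The Mt2 window held 4 matches, of which 1 lies upstream of the stretch shown, and the Mt1 window held 3. The table places the Mt1 start 206 bases inside the 5′ end of the RefSeq gene. At least 3 matches occurred in 1.97% of all 32851 windows of this length, at least 4 in 0.517% and at least 1 in 25.7%. Gclm also had 3 matches and Srxn1 had 1, while the windows of Ephx1, Nqo1 and Txnrd1 had none. The antioxidant response element core, spelled TGACNNNGC and searched on both strands, occurred at least once in 12.4% of all windows. It was found once each in Srxn1, Gclm, Mt2 and 1 of the 3 Txnrd1 windows, and not in Mt1, Ephx1 or Nqo1. Those 4 sites are printed in plus-strand letters with the match in capitals, to show which of the NRF2-type genes carry these letters near their start. They lie at chr2:152105544-152105568 for Srxn1, chr3:122245415-122245439 for Gclm, chr8:94172531-94172555 for Mt2 and chr10:82859106-82859130 for Txnrd1.

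Srxn1: agtgggcaGCTAGGTCAgagtgaga
Gclm: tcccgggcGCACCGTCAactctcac
Mt2: agggggtgTGACTCAGCgcgggggg
Txnrd1: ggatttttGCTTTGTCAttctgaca

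A match is a description of letters and not a measured binding site, and a window without one says only that these letters are not in it.

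The deposited values are MAS5 signals, brightness on a linear scale, scaled to the same trimmed mean of 500 on every array, and the number of arrays limits the precision. Where a gene has several probe sets, the brightest one (highest mean log2 signal) stands for it below, and changes are differences of log2(signal + 16), which understate the change of dim genes. The model was limma over 12406 genes above a brightness filter, which all 10 genes passed, with Benjamini-Hochberg adjustment over those genes and a threshold of 0.05. Arrays of 1 group correlated at 0.969 to 0.982, and arrays of different stages at 0.857 to 0.877. Nr2f2, the gene deleted, had a mean signal of 377 ± 143 in E14.5 controls and 225 ± 60.9 in E14.5 knockouts (SD, n = 3 each; groups overlapping, adjusted p = 0.444 by limma). At E16.5 its mean signal was 4332 ± 467 in controls and 2534 ± 575 in knockouts (SD, n = 4 each; groups not overlapping, adjusted p = 0.0753 by limma). Of its 6 probe sets, fitted over all probe sets, 3 dimmer ones fell at E16.5, at -1.60, -2.57 and -1.79 on the log2 scale (adjusted p = 0.00295, 0.0135 and 0.0448 by limma), and none passed at E14.5; whether they lie inside the deleted part is not known here. The stages also differed in the arrays themselves: the log2 difference between the 3′ and 5′ Gapdh control probe sets was -0.42 to -0.06 on the E14.5 arrays and 0.94 to 1.83 on the E16.5 arrays, so stage and array processing cannot be told apart. The bioB hybridization control was 2773 to 3817 on the E16.5 arrays except for knockout replicates 1 and 4, at 7942 and 12899.

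Mt1 was about 2 times as bright in E14.5 knockouts as in controls, and Mt2, its neighbour, differed by a like amount. The Mt1 signals were 3103, 2878 and 2392 in the 3 E14.5 controls and 5797, 6008 and 4874 in the 3 knockouts. The 2 groups lie far apart, with the dimmest knockout well above the brightest control. The means were 2791 ± 363 and 5559 ± 603 (SD, n = 3 each), a log2 difference of 0.99 ± 0.17 (SE, 1.99-fold), and this is the value that chose the gene. Mt2, the second ubiquitous metallothionein, had signals of 2710, 3074 and 1673 in E14.5 controls and 5109, 5436 and 3958 in knockouts. Again every knockout stood above every control, and control replicate 3 and knockout replicate 3 were the dimmest of their groups for both genes. The Mt2 difference was 0.99 ± 0.26 (SE, log2, n = 3 each; 95% interval 0.45 to 1.53) and did not pass the threshold over all genes (adjusted p = 0.259 by limma).

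At E16.5 both metallothioneins were again brighter on average in knockouts, by less than at E14.5 for Mt1, and neither passed the test. The Mt1 signals were 3188, 3028, 2185 and 3970 in the 4 controls and 3950, 4167, 3900 and 4721 in the 4 knockouts. Control replicate 4 reached into the knockout range, so the groups overlapped. The difference was 0.46 ± 0.15 (SE, log2, 1.38-fold, n = 4 each; adjusted p = 0.119 by limma). The Mt2 signals were 3570, 3537, 2636 and 5988 in controls and 6712, 5546, 5137 and 8145 in knockouts. The same control array was the brightest of its group and overlapped with the knockouts. The Mt2 difference was 0.74 ± 0.22 (SE, log2, 1.67-fold, n = 4 each), with an adjusted p = 0.103 by limma. Without control replicate 4 it was 0.96 and passed the threshold (adjusted p = 0.0371 by limma, 3 controls against 4 knockouts). That was the 1 pass among 14 fits with 1 array left out, in which the adjusted p reached 0.269 by limma. A second Mt1 probe set, 1451612_at, was dim, at signals of 23 to 84 over the 14 arrays; its differences were 0.53 ± 0.33 at E14.5 and 0.63 ± 0.28 at E16.5 (SE, log2), and neither passed (adjusted p = 0.718 and 0.380 by limma, over all probe sets).

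**Figure D1:**
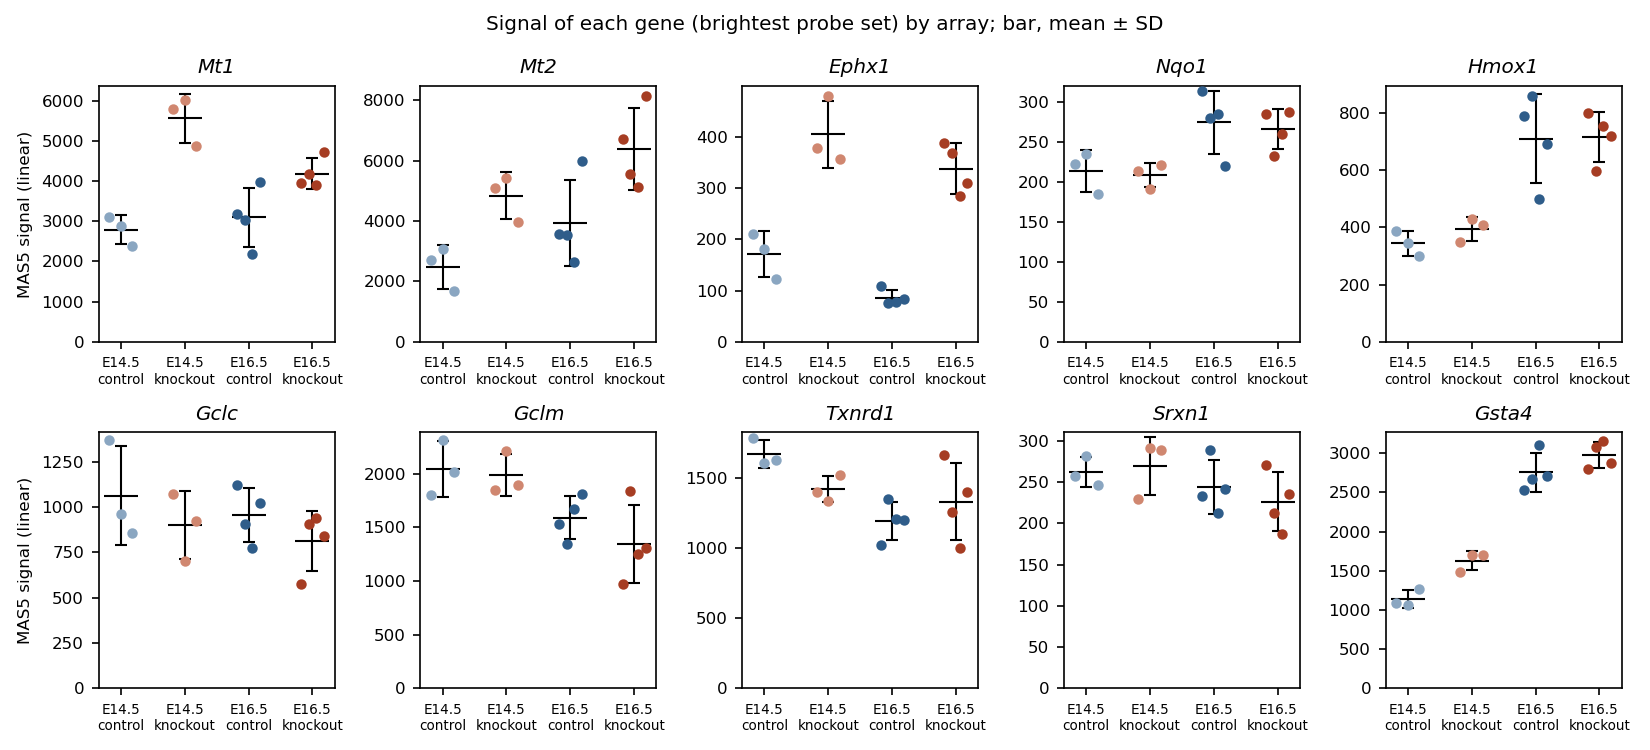
MAS5 signal (linear scale) of each of the 10 genes on each of the 14 arrays, by group; every point is 1 array and the bar with whiskers is the group mean ± SD. Mt1, Mt2, Ephx1 and Gsta4 have every E14.5 knockout above every E14.5 control, and Ephx1 alone of the 10 has separate groups at E16.5.

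Ephx1 had the highest knockout to control ratio of the 10 genes at both stages. At E16.5, the contrast that chose it, its signals were 109, 75, 78 and 84 in the 4 controls and 389, 370, 284 and 310 in the 4 knockouts. The dimmest knockout was more than 2 times the brightest control. The means were 86.5 ± 15.4 and 338 ± 49.5 (SD, n = 4 each), a log2 difference of 1.79 ± 0.18 (SE, 3.46-fold). At E14.5, which did not choose it, the signals were 211, 182 and 123 in controls and 380, 480 and 357 in knockouts. All 3 knockouts stood above all 3 controls there as well. The means were 172 ± 45.1 and 405 ± 65.1 (SD, n = 3 each), and the difference of 1.18 ± 0.21 (SE, log2, 2.27-fold; 95% interval 0.74 to 1.63) did not pass over all genes (adjusted p = 0.0693 by limma). Of 14 fits with 1 array left out it passed in 2, without E14.5 control replicate 1 (adjusted p = 0.0252 by limma) or without knockout replicate 3 (adjusted p = 0.0166 by limma). Over these fits its adjusted p reached 0.336 by limma. From E14.5 to E16.5 the control mean went from 172 to 86.5 and the knockout mean from 405 to 338. Ephx1 has 1 probe set on the array.

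On their brightest probe sets, the 2 subunits of glutamate-cysteine ligase, the rate-limiting enzyme of glutathione synthesis, did not pass the test at either stage. A second, dimmer Gclc probe set, described below, passed at E16.5 (0.49 ± 0.10 SE, log2, adjusted p = 0.0423 by limma over all probe sets). It lost that call in many of the fits with 1 array left out. Gclc, the catalytic subunit, had signals of 1371, 961 and 857 in E14.5 controls and 1073, 702 and 923 in knockouts, which overlapped. Its difference was -0.23 ± 0.21 at E14.5 and -0.24 ± 0.18 at E16.5 (SE, log2; adjusted p = 0.810 and 0.514 by limma). Gclm, the modifier subunit, had E16.5 signals of 1533, 1346, 1670 and 1808 in controls and 974, 1841, 1246 and 1308 in knockouts. The groups overlapped, since knockout replicate 2 was the brightest of all 8 arrays. Its difference was -0.04 ± 0.18 at E14.5 and -0.27 ± 0.16 at E16.5 (SE, log2; adjusted p = 0.976 and 0.378 by limma; 95% intervals -0.42 to 0.34 and -0.60 to 0.06).

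Gsta4 is a glutathione transferase that conjugates lipid peroxidation products such as hydroxynonenal. Among the 7 enzymes of oxidative defence, Gsta4 alone had every E14.5 knockout above every control. Its signals were 1086, 1065 and 1267 in E14.5 controls and 1490, 1700 and 1702 in knockouts. The groups did not overlap, and the difference of 0.51 ± 0.11 (SE, log2, 1.43-fold, n = 3 each) did not pass over all genes (adjusted p = 0.205 by limma). At E16.5 the signals were 2537, 2674, 3109 and 2708 in controls and 2797, 3078, 3158 and 2871 in knockouts. The groups overlapped there, with a difference of 0.11 ± 0.10 (SE, log2; adjusted p = 0.576 by limma; 95% interval -0.10 to 0.32).

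Txnrd1, the cytosolic thioredoxin reductase, was slightly dimmer in E14.5 knockouts. Its signals were 1786, 1608 and 1628 in E14.5 controls and 1402, 1340 and 1526 in knockouts. The groups did not overlap, in the direction opposite to Mt1, and the difference of -0.23 ± 0.16 (SE, log2) did not pass (adjusted p = 0.71 by limma). At E16.5 they overlapped, with a difference of 0.14 ± 0.13 (SE, log2; adjusted p = 0.624 by limma). Srxn1, sulfiredoxin, which restores overoxidized peroxiredoxins, had means of 262 ± 18.3 and 270 ± 34.7 in E14.5 controls and knockouts (SD, n = 3 each) and 244 ± 32.7 and 226 ± 35.3 at E16.5 (SD, n = 4 each). Its groups overlapped at both stages, with differences of 0.03 ± 0.18 and -0.10 ± 0.15 (SE, log2; adjusted p = 0.978 and 0.758 by limma).

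Nqo1 and Hmox1, the quinone reductase and the haem oxygenase most often used as readouts of NRF2, did not pass the test at either stage. Nqo1 signals were 222, 234 and 185 in E14.5 controls against 213, 192 and 221 in knockouts, and 314, 280, 285 and 220 in E16.5 controls against 285, 233, 260 and 287 in knockouts. The groups overlapped at both stages. The differences were -0.03 ± 0.17 at E14.5 and -0.03 ± 0.15 at E16.5 (SE, log2; adjusted p = 0.981 and 0.924 by limma), with 95% intervals of -0.39 to 0.33 and -0.35 to 0.28. Hmox1, which breaks haem into biliverdin, iron and carbon monoxide, had signals of 386, 347 and 300 in E14.5 controls and 348, 429 and 409 in knockouts. At E16.5 they were 791, 859, 500 and 693 in controls and 801, 597, 756 and 719 in knockouts. These groups overlapped too. Its differences were 0.19 ± 0.18 and 0.03 ± 0.16 (SE, log2; adjusted p = 0.821 and 0.930 by limma), with 95% intervals of -0.20 to 0.58 and -0.30 to 0.37. These intervals are not adjusted for the number of genes.

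**Figure D2:**
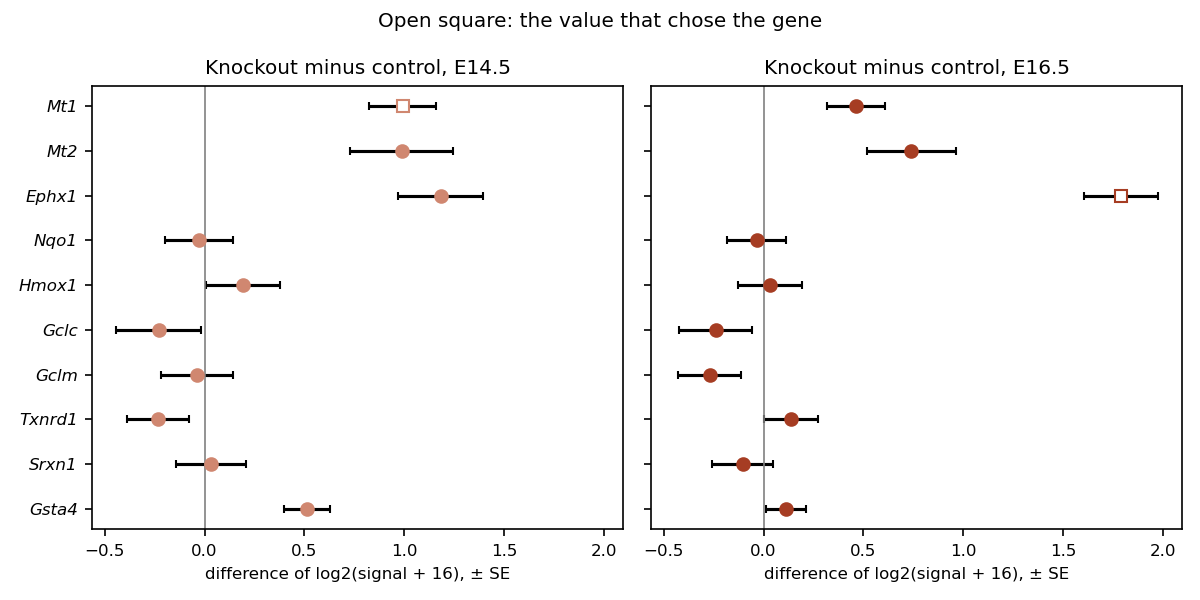
Knockout minus control difference of log2(signal + 16) for each of the 10 genes at E14.5 (left) and E16.5 (right); points are the limma estimates, whiskers are ± SE, and an open square marks the value that chose the gene. Mt1, Mt2 and Ephx1 stand to the right of 0 at both stages (0.46 to 1.79), Gsta4 at 0.51 at E14.5, and the other 6 genes lie between -0.27 and 0.19.

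Without the gene that each contrast chose, 0 of 9 genes passed at E14.5 by limma, where 0.0403% of all genes tested passed (5 of 12406, all higher), and 0 of 9 at E16.5, where 1.42% passed (176 of 12406; 0.967% were higher). The unadjusted p was below 0.05 for Mt2, Ephx1 and Gsta4 at E14.5, against 8.55% of all genes, and for Mt1 and Mt2 at E16.5, against 18.3%. Groups that did not overlap were found for 4 of these 9 genes at E14.5 (Mt2, Ephx1 and Gsta4 above and Txnrd1 below), against 12.7% of all genes (7.84% above and 4.9% below), and for 0 of 9 at E16.5, against 10.4% (6.22% above). For the 7 enzymes of oxidative defence the median log2 difference was -0.03 at each stage, beside 0.03 and 0.05 over all genes tested, with 3 of 7 positive at each stage. No member, and none of the 12406 genes (0% called; 1105 at an unadjusted p below 0.05), passed the test of a difference in knockout effect between stages by limma. That difference, E16.5 minus E14.5, was -0.25 ± 0.34 for Mt2, -0.40 ± 0.15 for Gsta4 and 0.37 ± 0.21 for Txnrd1 (SE, log2; adjusted p = 0.850, 0.525 and 0.607 by limma). For Mt1 and Ephx1, whose arrays chose them, it was -0.53 ± 0.22 and 0.61 ± 0.28 as a description.

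Hepatocyte marker signal was high in E14.5 knockout replicates 1 and 2 but not in replicate 3, and it varied widely between E16.5 arrays of both genotypes. The values are given here beside the metallothioneins and Ephx1. In whole-ovary RNA, fewer cells of a type and less RNA per cell cannot be told apart. Of 7 hepatocyte markers (Alb, Afp and others) 6 were measured, and their summed signal was 513 to 1011 in E14.5 controls, 14707, 11145 and 1046 in E14.5 knockouts 1 to 3, 1789 to 14135 in E16.5 controls and 3090 to 12584 in E16.5 knockouts. None of the 6 passed in either knockout comparison and none was listed at 0, though 2 were under the brightness filter in E14.5 controls. Knockout replicate 3, whose sum was 1046, had Mt1 at 4874, Mt2 at 3958, Ephx1 at 357 and Gsta4 at 1702, each above all 3 controls. Its Mt1, Mt2 and Ephx1 signals were the lowest of the E14.5 knockouts. With that array alone as the knockout group, the differences were 0.81 for Mt1, 0.71 for Mt2 and 1.02 for Ephx1 on the log2 scale. A single array has no spread of its own. With the log2 hepatocyte sum as a covariate the differences were 0.77, 0.80 and 1.23, and neither Mt2 nor Ephx1 passed (adjusted p = 0.974 each by limma). The part of hepatocyte transcripts in the Mt1, Mt2 and Ephx1 differences was not tested. In E16.5 controls 1 to 4 the hepatocyte sums were 2110, 14135, 1789 and 7689, beside the Mt1, Mt2 and Ephx1 signals given above in the same order.

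Of 7 steroid-making and adrenal cortical markers tested, 3 rose at E16.5 (Mc2r, Hao2 and Hsd3b1) and 0 fell. Of all genes tested, 0.967% were called higher there and 0.451% lower. Mean E16.5 signals in controls and knockouts were 168 and 106 for Cyp11a1, 286 and 338 for Star and 88.4 and 101 for Cyp17a1. The summed signal of all 9 was 1842 to 3095 in controls and 4318 to 7564 in knockouts. Most of that sum was Hsd3b1, with means of 1388 and 4105. At E14.5 0 of 7 passed, with sums of 1454 to 2991 and 2373 to 4664; none was listed at 0, and up to 3 of 9 were under the filter in a group. Of 7 surface epithelium markers 2 rose at E16.5 (Krt19 and Upk1b), and their sums did not overlap between genotypes at either stage, at 6358 to 6679 and 8469 to 11690 at E14.5 and 7080 to 8366 and 9572 to 13915 at E16.5. Of 9 macrophage markers 1 rose at E16.5 (C1qb), with sums of 1638 to 2190 and 1745 to 2789 at E14.5 and 3101 to 3508 and 3421 to 7349 at E16.5. Leaving out 1 array at a time gave 1 to 4 steroid-making, 0 to 3 surface and 0 to 1 macrophage markers higher at E16.5; the lowest counts came without E16.5 knockout replicate 1 for the first, without it or E16.5 control replicate 3 for the second, and without any of 11 arrays for the third. Without both E16.5 knockout arrays of high bioB, 0 of these markers passed, where 16 of all genes did. Of 6 interstitial markers measured of 7, 2 fell at E16.5, Pdgfra from 3079 to 1296 and Wnt5a from 1502 to 591 (mean signals). The others did not pass and went both ways. Their E16.5 means in controls and knockouts were 2396 and 1384 for Tcf21 and 2240 and 2192 for Lum. They were 3970 and 5382 for Dcn and 9379 and 10857 for Col1a1. The interstitial sums were 21269 to 23852 in controls and 18307 to 24992 in knockouts. The part of these steroid-making, surface, macrophage and interstitial transcripts in the Mt1, Mt2 and Ephx1 differences was not tested. The tissue's own markers were present on all arrays. The 7 pre-granulosa markers, Foxl2 among them, summed to 26746 to 32960 and 26019 to 30139 in E14.5 controls and knockouts, and to 22640 to 23596 and 17748 to 20156 at E16.5, where the sums did not overlap and 0 of 7 passed. The 7 germ cell markers summed to 57686 to 68804 and 45385 to 61885 in E14.5 controls and knockouts. At E16.5 their sums were 13468 to 19817 and 15442 to 19894, and 0 of 7 passed at either stage. Of 7 kidney and mesonephric markers 5 were measured and 4 tested, of which 0 passed at either stage. Their median log2 differences were 0.51 at E14.5 and 0.73 at E16.5. The part of germ cell, kidney and mesonephric transcripts in the Mt1, Mt2 and Ephx1 differences was not tested.

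**Figure D3:**
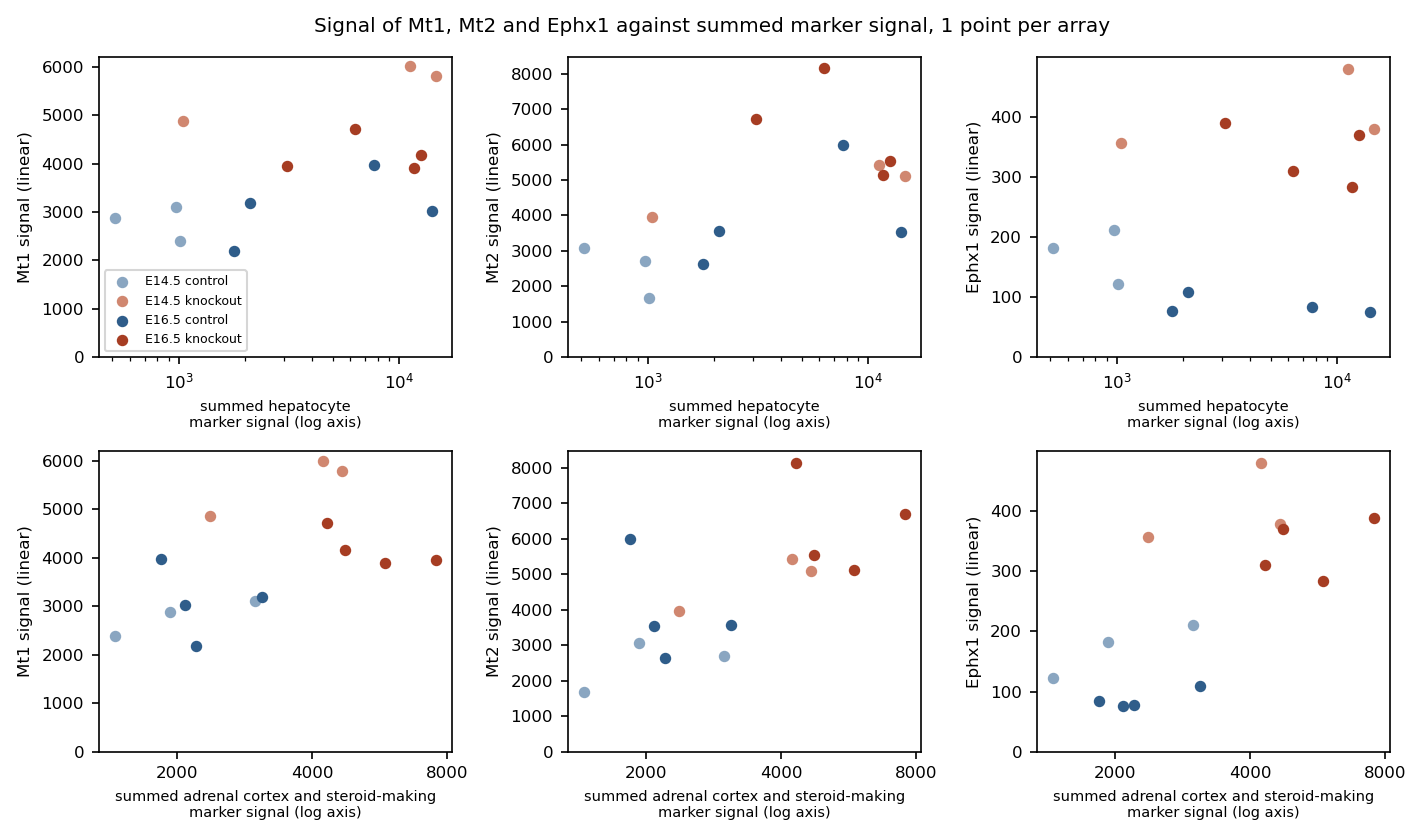
Signal (linear) of Mt1, Mt2 and Ephx1 against the summed signal (log axis) of hepatocyte markers (top) and of adrenal and steroid-making markers (bottom); every point is 1 array, coloured by group. In the top row 1 E14.5 knockout has a hepatocyte sum of 1046, beside controls of up to 1011. Its Mt1, Mt2 and Ephx1 signals are above those controls and are the lowest of the E14.5 knockouts.

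Between E14.5 and E16.5 in controls the 10 genes went different ways, on a background in which 64.4% of all genes tested passed (28.5% higher and 35.9% lower) and the groups of 67.6% did not overlap. The median of all genes shifted by -0.09 on the log2 scale, and by -0.43 after median centring and -0.21 after quantile normalization; 3541 genes were higher and 4452 lower, against 2257 and 6251 after median centring. Gsta4 and Hmox1 rose: Gsta4 from 1139 ± 111 to 2757 ± 246 and Hmox1 from 344 ± 43.1 to 711 ± 156 (SD, n = 3 and 4), with log2 differences of 1.26 ± 0.11 and 0.99 ± 0.17 (SE; adjusted p = 2.19e-08 and 7.67e-05 by limma). Both kept their direction under median centring, at 0.92 and 0.65. Mt2 rose by 0.64 ± 0.24 (SE, log2; adjusted p = 0.0276 by limma), but its groups overlapped, and after median centring it was 0.30 and did not pass (adjusted p = 0.252 by limma). Txnrd1 fell by 0.48 ± 0.15 (SE, log2; adjusted p = 0.00764 by limma) on its brightest probe set. Nqo1, Gclc, Gclm and Srxn1 did not pass, at 0.33, -0.14, -0.36 and -0.10 (adjusted p = 0.0768, 0.563, 0.0720 and 0.599 by limma), and Nqo1 was -0.01 after median centring and -0.02 after quantile normalization. For Mt1 and Ephx1 the differences were 0.12 ± 0.16 and -0.86 ± 0.20 as a description, and that of Mt1 was -0.22 after median centring. With the Gapdh 3′ to 5′ difference as a covariate, 701 genes and none of the 10 passed.

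Of the 10 genes 5 have 1 probe set and 5 have 2 to 4, and for Gclc, Txnrd1 and Srxn1 these disagreed. In Affymetrix names the suffix _s marks probes shared by several transcripts, _a those of 1 gene, and _x probes that may cross-hybridize. Mt1 is represented throughout by 1422557_s_at, a probe set of the shared kind, and which transcripts share its probes was not examined here. The second Gclc probe set, 1455959_s_at, had E16.5 signals of 457, 451, 455 and 411 in controls and 658, 614, 595 and 652 in knockouts. These groups were far apart, and the probe set rose by 0.49 ± 0.10 (SE, log2, n = 4 each; adjusted p = 0.0423 by limma over all probe sets), whereas the brighter 1424296_at gave -0.24 ± 0.18 (adjusted p = 0.654 by limma over all probe sets). That call was lost on leaving out any 1 of the E16.5 controls, any 1 of E16.5 knockout replicates 1, 3 and 4, or E14.5 control replicate 2 or 3, at 0.46 to 0.52 (log2) with an adjusted p of up to 0.138 by limma. Without both E16.5 knockout arrays of high bioB this probe set was at 0.43 and did not pass (adjusted p = 0.377 by limma). At E14.5 it went the other way, at 938, 951 and 1002 in controls and 883, 855 and 910 in knockouts, and did not pass (adjusted p = 0.857 by limma). For Txnrd1, 1424486_a_at had E14.5 signals of 65, 55 and 74 in controls and 11, 8 and 43 in knockouts, without overlap, at -1.25 ± 0.26 (SE, log2; adjusted p = 0.125 by limma), much of it near or under the brightness filter. The same probe set was 2.59 higher in E16.5 than in E14.5 controls (log2, adjusted p = 4.98e-08 by limma), opposite to the brightest one. Among the 4 Srxn1 probe sets, 1419942_at was 3.67 higher and 1425351_at was 1.29 lower in E16.5 controls on the log2 scale (adjusted p = 3.38e-08 and 0.000918 by limma), while the other 2 did not pass. Their part in the stage differences, beside the Gapdh 3′ to 5′ shift between stages, was not tested.

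**Figure D4:**
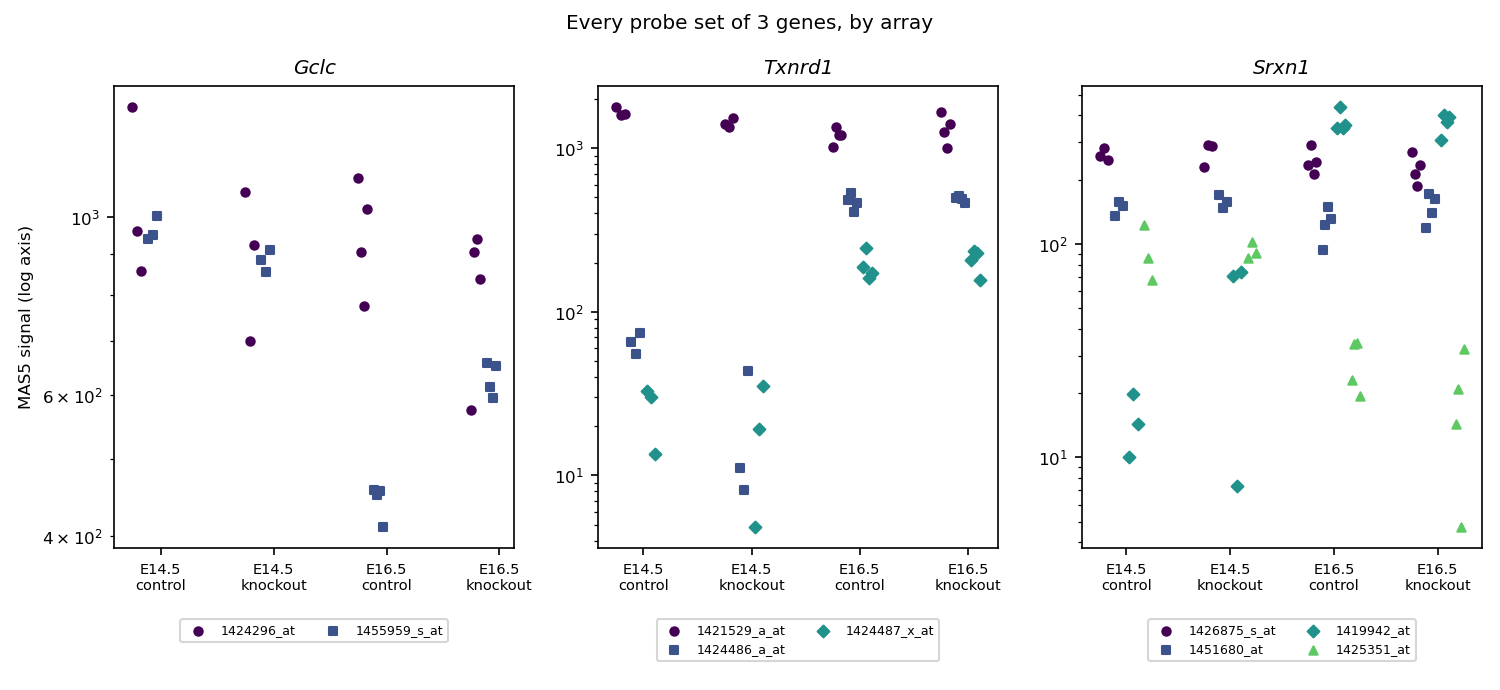
MAS5 signal (log axis) of every probe set of Gclc, Txnrd1 and Srxn1 on each array, by group; every point is 1 array and each colour and marker is 1 probe set. The 2 Gclc probe sets part between stages and genotypes, and probe sets of Txnrd1 and Srxn1 move in opposite directions from E14.5 to E16.5.

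The wider pathways were described with 9 lists of 112 other genes, of which 8 had no probe set of their own, 12 were too dim and 92 were tested. None of the 92 rose or fell at E14.5 by limma, and at E16.5 1 fell and 0 rose, where 0.0403% and 1.42% of all genes passed. An unadjusted p below 0.05 was found for 15 at E14.5, against 8.55% of all genes, and for 20 at E16.5, against 18.3%. Groups did not overlap for 9 above and 5 below at E14.5, against 7.84% and 4.9% of all genes. At E16.5 these were 7 above and 3 below, against 6.22% and 4.22%. The medians were 0.08 and 0.10 (log2), beside 0.03 and 0.05 over all genes tested. Among the 9 NRF2 regulators none passed at either stage. Nfe2l2, NRF2 itself, had mean signals of 2023 and 1997 at E14.5 and 1954 and 1849 at E16.5 in controls and knockouts, which overlapped. Bach1, the repressor at antioxidant response elements, had E16.5 means of 2174 ± 163 in controls and 1451 ± 378 in knockouts (SD, n = 4 each), groups that did not overlap. The difference was -0.61 ± 0.15 (SE, log2, adjusted p = 0.0550 by limma). Leaving out 1 array gave -0.72 to -0.43, and 2 of 14 such fits passed (adjusted p = 0.0243 to 0.148 by limma). Without both E16.5 knockout arrays of high bioB the Bach1 difference was -0.31 (adjusted p = 0.469 by limma). Keap1, the NRF2 inhibitor, was at 0.14 ± 0.14 and 0.30 ± 0.12 (SE, log2; adjusted p = 0.839 and 0.205 by limma), and Maff, a small partner of NRF2, had the smallest p of the list at E14.5 (0.93 ± 0.30, adjusted p = 0.396 by limma).

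Of 22 tested genes of glutathione synthesis and use none passed at either stage, with 17 positive at E14.5 and 18 at E16.5, where 55.3% and 58.9% of all genes were positive. The smallest p of the list belonged to the transferase Gstt1 at E14.5, at 0.63 ± 0.19, and to glutaredoxin, Glrx, at E16.5, at 0.55 ± 0.14 (SE, log2; adjusted p = 0.322 and 0.0608 by limma). Glrx means at E16.5 were 917 ± 139 in controls and 1350 ± 206 in knockouts (SD, n = 4 each), without overlap. Among 10 thioredoxin and peroxiredoxin genes none passed, with Txn1, thioredoxin, at 0.24 ± 0.09 at E16.5 (SE, log2; adjusted p = 0.165 by limma). None of 4 genes of superoxide and peroxide removal, 10 of NADPH supply and carbonyl reduction or 7 of haem and iron handling passed either. Examples with the smallest p in their list were Sod2, the mitochondrial manganese superoxide dismutase, at -0.46 ± 0.17 at E14.5 and Slc40a1, the iron exporter ferroportin, at -0.41 ± 0.12 at E16.5 (SE, log2; adjusted p = 0.432 and 0.0910 by limma).

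None of the 14 zinc and copper genes tested passed at either stage, at medians of 0.01 and 0.04 (log2). Mt3, the metallothionein best known from brain, was dim and had the smallest p of that list at E14.5, at -1.24 ± 0.47 (SE, log2), opposite in sign to Mt1 and Mt2, and did not pass (adjusted p = 0.440 by limma). Among 7 glucocorticoid-responsive genes none passed, with Klf9 at 0.34 ± 0.15 at E14.5 and Per1, a clock gene, at 0.72 ± 0.18 at E16.5 (SE, log2; adjusted p = 0.561 and 0.0563 by limma). The Per1 means at E16.5 were 201 ± 29.6 and 344 ± 68.8 (SD, n = 4 each), without overlap. The 1 gene that passed belongs to epoxide and xenobiotic metabolism: Cyp1b1, a cytochrome P450 that oxidizes steroids and aromatic hydrocarbons, fell at E16.5 from 2179 ± 72.5 to 1565 ± 170 (SD, n = 4 each), by 0.48 ± 0.10 on the log2 scale (SE; adjusted p = 0.0240 by limma). It lost that call on leaving out any 1 of the E16.5 controls or E16.5 knockout replicate 1 or 4, with an adjusted p of up to 0.0856 by limma. Without both E16.5 knockout arrays of high bioB the difference was -0.44 and did not pass (adjusted p = 0.229 by limma). The other 8 genes tested of that list did not pass.

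**Figure D5:**
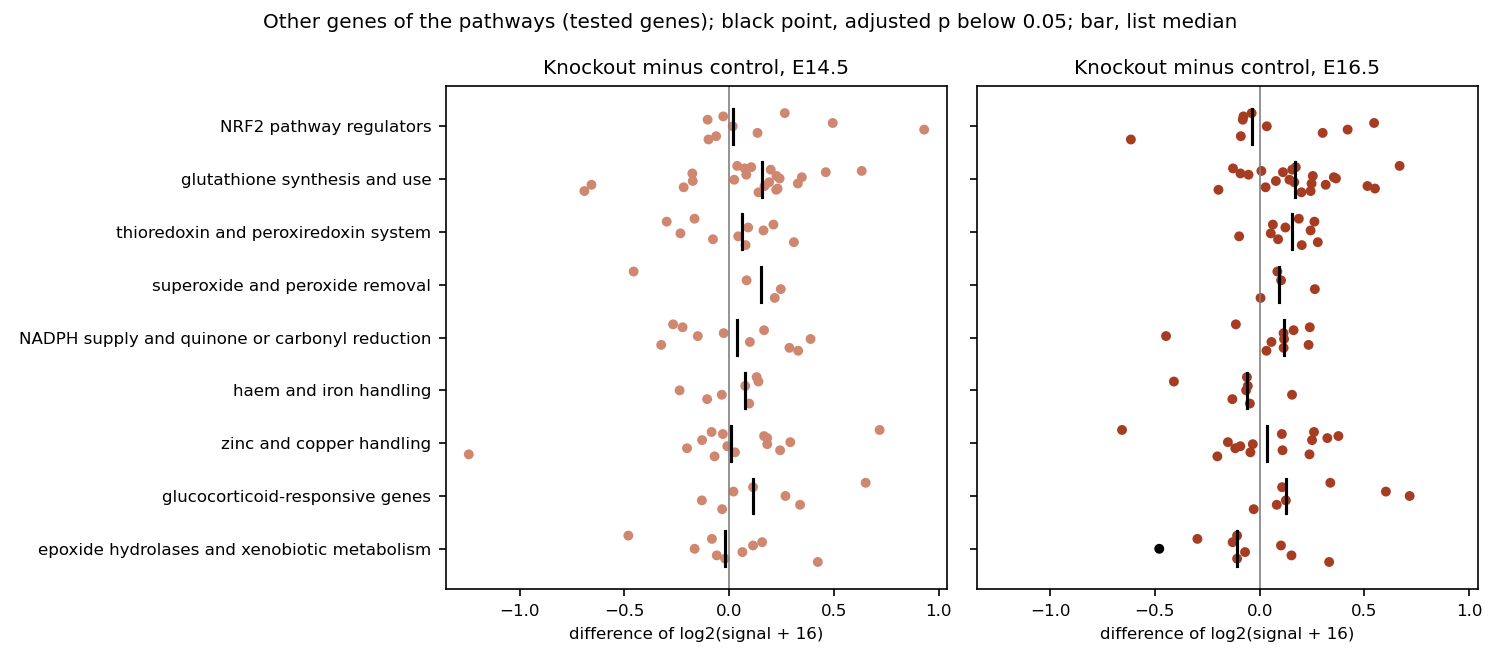
Knockout minus control difference of log2(signal + 16) for the tested genes of 9 pathway lists at E14.5 (left) and E16.5 (right); every point is 1 gene, black where the adjusted p is below 0.05, and the bar is the list median. The medians of all lists lie near 0, and the only black point is Cyp1b1 at E16.5.

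Likeness to Mt1 and Ephx1 was described by Pearson's r of log2 signals over the 14 arrays after subtracting each stage's mean; the arrays share the genotype difference, so r includes it. Clone and predicted-model symbols were left out of both rankings. The genes most like Mt1 among the rest were Mt2 at 0.938, B2m at 0.902, Spon2 at 0.886, Krt19 at 0.880 and Fchsd1 at 0.872. Those most like Ephx1 were Thbd at 0.956, Mfap3l at 0.951, Cdkn1a at 0.942, Ccng1 at 0.937 and Ecrg4 at 0.930. Mt1 and Ephx1 correlated with each other at 0.775. Against Mt1 the other members were at 0.60 for Gsta4 and 0.49 for Hmox1, and between -0.20 and 0.05 for Nqo1, Gclc, Gclm, Txnrd1 and Srxn1. Against Ephx1 they were at 0.79 for Mt2, 0.52 for Gsta4, 0.29 for Hmox1 and -0.38 for both Gclc and Gclm. Nqo1, Txnrd1 and Srxn1 were between -0.11 and 0.06 against Ephx1.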

How the data were processed

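RNA of 14 whole fetal ovary samples was hybridized to Affymetrix arrays. The deposited values are signal intensity; the submitters' processing notes name MAS5 and Affymetrix Expression Console as the authors' tools; a trimmed mean of 500 on every array (2% trimmed at each end) was found in the values. Depth does not apply to arrays, and the number of arrays limits the precision. Of 45037 probe sets, 34945 had 1 platform symbol, 932 several and 9160 none, and 34741 of the single symbols were found in RefSeq, GRCm38.p6. From these, log2(signal + 16) was computed, and each of 18193 genes was taken at the probe set of highest mean log2. The 12406 genes with a mean above percentile 40 of the probe sets (a signal of 62.0) were fitted in limma 3.58.1 (R 4.3.3; lmFit and eBayes with trend, two-sided) over 4 groups, with Benjamini-Hochberg adjustment and a threshold of 0.05. Probe sets were also fitted without a filter. The procedure was tested on simulated data.

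Members, pathway lists, marker lists and tests were chosen with earlier results of these data known. Named are all members and Nr2f2, and from each pathway list the genes that passed or the 1 with the smallest p. Nfe2l2, Keap1 and Bach1 are named as the core of NRF2 control. Also named are the 5 genes most like Mt1 and Ephx1, with clone and predicted-model symbols left out. The labels do not say whether equal replicate numbers pair the samples, and the main fit has no replicate block. Deviations of same-numbered control and knockout arrays correlated at between -0.0478 and 0.161 in the E14.5 arrays. In those of E16.5 they correlated at between -0.00217 and 0.43, so these values do not settle whether the samples are paired. Alternatives covered pseudocount, scaling, filter, probe set rule, spread model, the stages fitted together or apart, a replicate block, a Gapdh 3′ to 5′ covariate, single arrays left out and arrays that stand apart; 2 on hepatocyte markers were added after seeing the data.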

Additional observations from a re-analysis of the deposited data

How the results depend on the processing

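Limits come first from the number of arrays, 3 or 4 a group, and from signals near background for the dim probe sets of Mt1, Txnrd1 and Srxn1. The 2 values that chose the genes were, as a description, between 1.42 and 1.92 (log2) for Ephx1 at E16.5 and between 0.76 and 0.996 for Mt1 at E14.5 over 14 alternatives other than single arrays left out. Over the values of the 10 genes under these alternatives, 471 of 530 kept their direction and side of the threshold, 28 reversed, 13 newly passed and 18 no longer passed. The tally holds the 2 values that chose the genes. Of the 18 losses 11 were Mt1 at E14.5, given as a description because its value chose the genes. Numbers of genes called are not in the tally and are given below. The cause was not tested unless stated.

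Of all genes, 5 were called at E14.5, and the count was 0 under a pseudocount of 64, quantile normalization, median centring, a 60th percentile filter, no trend, 1 stage only, the Gapdh covariate, without both E16.5 knockout arrays with high bioB, with the hepatocyte marker covariate and without both E14.5 knockout arrays with high hepatocyte markers (fewer samples). The members called there, 1 with Mt1 counted, were 0 under the same 10 settings. With no filter 9 genes were called at E14.5. With the replicate block, 9 genes were called at E14.5, with 2 members, Mt1 counted, and Mt2 at an adjusted p of 0.0121 by limma. At E16.5 it gave 293 genes and 3 members, Ephx1 counted, with Mt1 at 0.0427 and Mt2 at 0.00670 (adjusted p by limma). The labels do not say whether the numbers pair the samples, and 4 of 7 did not match best with their own number. The block changed no other member's call. The 176 genes at E16.5 became 18 with the Gapdh covariate, 278 with quantile normalization and 16 without both high-bioB arrays. The difference between stages had 1 gene with no filter. Between stages in controls, 7993 genes and 5 members became 701 and 0 with the Gapdh covariate, and 9 members passed with the mean of probe sets.

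Leaving out 1 array gave 0 to 179 genes and 0 to 2 members at E14.5 (179 without knockout replicate 3). At E16.5 it gave 43 to 494 genes and 1 to 2 members. These member counts include Mt1 at E14.5 and Ephx1 at E16.5 where called, the values that chose the genes, and are a description. There were 0 to 30 genes for the difference, and 7274 to 8116 genes and 4 to 6 members between stages in controls. Small differences that changed sign with 1 array left out were, at E14.5, Gclm (-0.125 to 0.055), Nqo1 (-0.122 to 0.038) and Srxn1 (-0.023 to 0.138), at E16.5, Hmox1 (-0.121 to 0.132) and Nqo1 (-0.131 to 0.029), in the difference between stages, Gclc (-0.205 to 0.145), Mt2 (-0.425 to 0.011) and Nqo1 (-0.103 to 0.088), and between stages in controls, Gclc (-0.274 to 0.060) and Mt1 (-0.0062 to 0.279).

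Signs turned as follows (log2). With the Gapdh covariate, at E16.5 Gclc was 0.16, Hmox1 -0.033 and Txnrd1 -0.099, the Gclc difference was 0.35, and between stages Mt1 was -0.097, Srxn1 0.94 and Txnrd1 0.77. With the mean of probe sets, Gclc was 0.13 at E16.5 and 0.30 in the difference, and Srxn1 and Txnrd1 were 0.51 and 1.48 between stages and passed (adjusted p = 0.0112 and 1.66e-06), since their dimmer probe sets rise. With median centring, Srxn1 at E14.5 was -0.018, Hmox1 at E16.5 -0.00287, the Gclc and Nqo1 differences 0.00377 and 0.00655, and Mt1 and Nqo1 between stages -0.22 and -0.00764; with quantile normalization Srxn1 at E14.5 and Nqo1 between stages were -0.018 and -0.016. Without both high-bioB arrays, Hmox1 and Txnrd1 at E16.5 were -0.052 and -0.081 and the Gclc difference 0.19. With the hepatocyte covariate, Nqo1 was 0.15 at E14.5 and 0.00916 at E16.5, the Gclc difference 0.0996 and Mt1 between stages -0.071; without both high-hepatocyte arrays, Nqo1 at E14.5 was 0.053 and the Mt2 difference 0.025. The replicate block is nested in stage and gives no value between stages.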
